A study of Mus musculus with 8 samples.

Results

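Chemokines are small secreted or membrane-bound proteins that guide the migration of leukocytes, and their receptors are the G protein-coupled receptors that read them. All probe sets were taken whose single gene symbol in the platform annotation names a CC, CXC, CX3C or XC chemokine or one of their signalling receptors. The rule used names only, no measured value. It gave 66 probe sets of 49 genes, of 22626 probe sets for 12393 genes in all: 43 probe sets of 33 ligand genes and 23 probe sets of 16 receptor genes.

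Expression was measured with Affymetrix arrays in whole skin of newborn FVB mice, from 30 mg of tissue. The groups were skin of genotype pRb-/-;p107-/- (called double-null here), of genotype pRb+/+;p107-/- (p107-null), of genotype pRb-/-;p107+/+ (pRb-null) and of genotype pRb+/+. Each group had 2 arrays, and each array held pooled RNA of 3 animals. pRb, encoded by Rb1, and p107, encoded by Rbl1, are related proteins that hold E2F transcription factors in check and so slow cell division. For the pRb+/+ arrays no label names a p107 genotype. The labels name no promoter or Cre and do not say which cells of pRb-/- skin lack the gene, although the title of the series speaks of epidermis. Nor do they say whether the 2 arrays of a genotype held separate pools, so the p-values measure the spread between these arrays, which may be technical.

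The deposited value is a score: every probe set has mean 0 and SD 1 over the 8 arrays. A score or a difference of scores is therefore given in SD units of that probe set. No score can exceed 2.475 in size, and no difference between the means of 2 genotypes can exceed 2.646. Levels, fold changes and whether a gene is detected cannot be read from such values, and the labelled tissue could not be checked against its defining markers. Scores order the arrays for 1 probe set, and they do not order genes by abundance.

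Chemokines are named for the spacing of their first cysteines. Inflammatory ligands are made on demand, often under control of the transcription factor NF-kappa B, whereas homeostatic ligands are made steadily and place resident leukocytes. In skin, keratinocytes make several of both kinds. Ccl20 draws Ccr6-bearing dendritic cells and T cells towards epithelia, Ccl22 acts on Ccr4-bearing T cells, Cxcl14 is a steady product of epithelia, and Ccl11 and Ccl24 are eotaxins that draw eosinophils through Ccr3.

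Promoters are shown for ligands whose 2 double-null arrays both scored above the other 6 arrays. RefSeq windows of assembly GRCm38.p6 were matched by symbol for 5 of these 6 genes. Each line gives the 250 bases before the gene's start, 5′ to 3′ on the gene's own strand. Capitals mark matches to a kappa B form (GGGNNNNNCC) or an AP-1 form (TGANTCA), searched on both strands. Neighbouring kappa B matches overlap in Ccl20 and are printed as 1 stretch.
Ccl20, chr1:83116516-83116765, plus strand: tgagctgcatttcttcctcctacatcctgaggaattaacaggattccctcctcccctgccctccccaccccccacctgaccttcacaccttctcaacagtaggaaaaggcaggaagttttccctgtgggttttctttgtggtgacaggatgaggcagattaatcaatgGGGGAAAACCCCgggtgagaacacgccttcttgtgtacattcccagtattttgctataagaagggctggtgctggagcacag
Cxcl13, chr5:95956689-95956938, plus strand: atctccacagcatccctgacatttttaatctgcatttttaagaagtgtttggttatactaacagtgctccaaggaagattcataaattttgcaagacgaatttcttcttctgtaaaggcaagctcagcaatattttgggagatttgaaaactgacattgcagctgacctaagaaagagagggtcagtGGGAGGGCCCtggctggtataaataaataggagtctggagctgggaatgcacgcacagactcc
Ccl22, chr8:94745434-94745683, plus strand: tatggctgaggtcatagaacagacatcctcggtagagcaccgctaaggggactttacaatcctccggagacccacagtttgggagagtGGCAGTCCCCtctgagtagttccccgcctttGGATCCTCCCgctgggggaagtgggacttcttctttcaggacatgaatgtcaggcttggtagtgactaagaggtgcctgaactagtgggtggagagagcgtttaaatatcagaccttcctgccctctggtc
Ccl9, chr11:83578637-83578886, minus strand: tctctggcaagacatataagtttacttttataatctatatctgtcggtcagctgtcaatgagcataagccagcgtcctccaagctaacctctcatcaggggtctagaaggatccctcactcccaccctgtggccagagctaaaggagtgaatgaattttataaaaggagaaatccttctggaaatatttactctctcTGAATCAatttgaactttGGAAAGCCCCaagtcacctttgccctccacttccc
Cxcl14, chr13:56296552-56296801, minus strand: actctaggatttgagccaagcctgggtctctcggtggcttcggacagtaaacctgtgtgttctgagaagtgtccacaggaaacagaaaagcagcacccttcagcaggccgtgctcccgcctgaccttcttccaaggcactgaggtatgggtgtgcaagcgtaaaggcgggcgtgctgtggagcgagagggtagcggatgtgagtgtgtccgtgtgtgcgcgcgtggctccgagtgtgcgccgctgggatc

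The kappa B form lay at -82 to -71 from the start in Ccl20, with a TATAA at -28 to -24 on the gene's strand. In Cxcl13 it lay at -63 to -54, with a TATAA at -46 to -42. In Ccl9 it lay at -35 to -26, beside an AP-1 form at -53 to -47. Ccl9 also held TATAA at -236 to -232, -222 to -218 and -92 to -88. Ccl22 held 2 kappa B forms on the minus strand, at -162 to -153 and at -131 to -122, and the 250 bases of Cxcl14 held neither form. Over windows of 300 bases, which reach 50 bases past the start, 23 of 40 chemokine and receptor windows held the kappa B form (57.5%), against 50.8% of all 32851 windows. The AP-1 form was in 8 of the 40 (20%), against 7.81% of all windows. TATAA on the gene's strand was in 12 (30%), against 17.5%. None of the 40 windows held 1 of 3 E2F forms (TTTCCCGC, TTTGGCGC or TTTCGCGC on both strands), which were in 1.84% of all windows. The 40 windows belong to 36 of the 49 genes. These are matches of letters and not binding sites.

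Some features of all 8 arrays touch the comparisons below. Rb1 fell by 2.56 ± 0.27 (SE) in double-null relative to pRb+/+ skin, with an adjusted p of 0.0391 in limma's linear model. It scored -1.56 and -1.28 in double-null, 0.02 and 0.40 in p107-null and -0.22 and 0.36 in pRb-null skin, against 1.21 and 1.07 in pRb+/+ skin, so the pRb-null arrays overlapped the p107-null ones. The first Rbl1 probe set scored -0.31 and 0.31 in double-null, -1.51 and -1.22 in p107-null and 1.30 and 1.14 in pRb-null skin, against 0.08 and 0.21 in pRb+/+ skin. It was lowest in p107-null skin, while the double-null arrays lay on both sides of the pRb+/+ ones, with a difference of -0.14 ± 0.25 (adjusted p = 0.789). The second scored -0.13 and -0.20 in double-null, -1.53 and -1.12 in p107-null and 1.40 and -0.02 in pRb-null skin, against 0.58 and 1.03 in pRb+/+ skin. Rbl1 thus did not set the arrays labelled pRb-/-;p107-/- apart from pRb+/+ skin in its first probe set, nor Rb1 those labelled pRb-/-;p107+/+ from p107-null skin, and the genotype names used here are those of the labels. In the 5 pairs of genotypes tested, no other difference of Rb1 and none of either Rbl1 probe set passed the threshold. Whether the probes match the deleted exons is not stated in the labels. The 24 poly-A control probe sets, which measure RNA added to the sample, averaged -0.91 and -0.96 on the double-null arrays and -0.57 and -0.55 on the p107-null arrays. They averaged 1.38 and 1.13 on the pRb-null arrays and 0.30 and 0.19 on the pRb+/+ arrays, so all 4 p107-/- arrays lay below the other 4. Across the 66 probe sets, duplicates correlated with r = 0.117 in double-null, 0.214 in p107-null, -0.138 in pRb-null and -0.02 in pRb+/+ skin, a description of scores that share probe sets and not a test.

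Double-null skin was first set against pRb+/+ skin, the comparison with the most calls of the 5 pairs of genotypes tested (p107-null against pRb-null skin was not tested). At an adjusted p under 0.05, 1 of the 66 probe sets rose (Ccl20) and none fell, against a background of 2.94% of all probe sets called and 1.41% called higher. At an unadjusted p under 0.05 there were 12 (9 higher and 3 lower), which is 18.2% of the members against 22.3% of all probe sets. The members' share was thus below the background, whereas by direction 9 of 66 stood against 10.8% of all probe sets higher and 3 of 66 against 11.5% lower. The median difference was 0.36 over the members and 0.10 over all probe sets, and 40 of 66 differences were positive (60.6% against 52.3%). The members' median was 0.56 without the first double-null array and 0.20 without the second pRb+/+ array. With 1 probe set a gene it was 0.083 over 49 member genes and 0.14 over all 12393 genes (57.1% against 53.3% positive), so the members' median then lay below that of all genes. In RNA of whole skin, fewer cells of a type and less RNA per cell cannot be told apart.

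**Figure D1:**
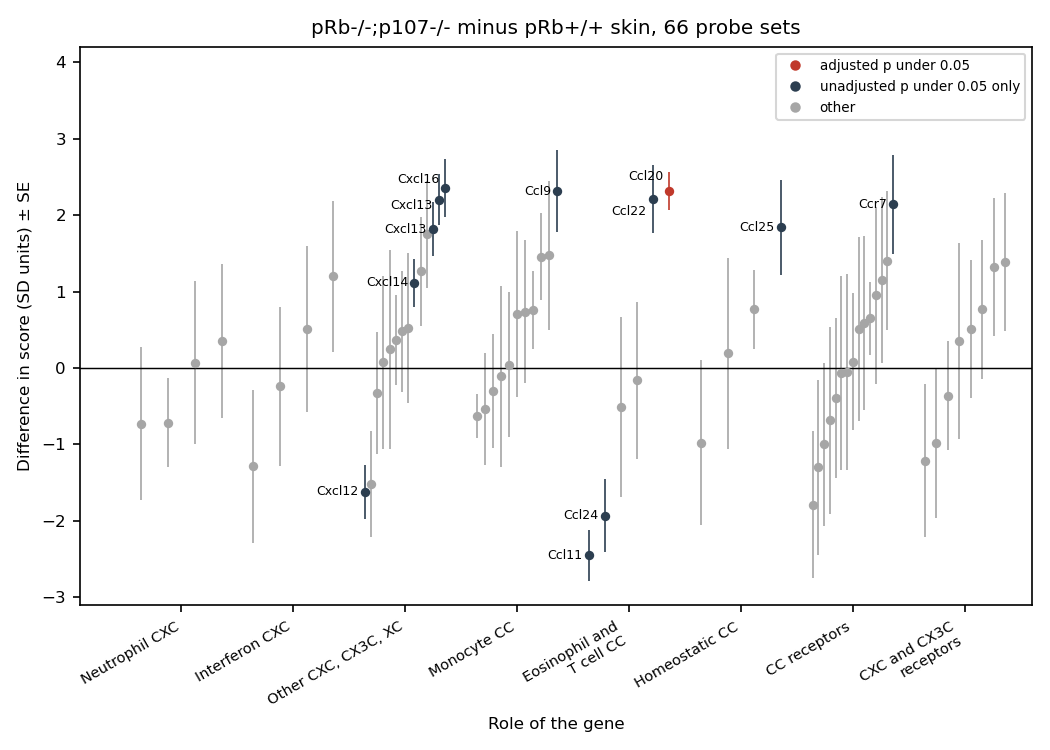
Difference in score between pRb-/-;p107-/- and pRb+/+ skin (SD units, points with bars of 1 SE of the linear model) for the 66 probe sets, grouped along the x axis by role. Ccl20 is the only probe set at an adjusted p under 0.05, while Ccl11, Ccl24 and 1 Cxcl12 probe set lie at the low end among those at an unadjusted p under 0.05.

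Of the 6 CC ligands of eosinophils and T cells, 1 rose (Ccl20), none fell and 5 did not pass. Ccl20, the only known chemokine ligand of Ccr6, scored 1.25 and 1.75 in double-null skin, -0.47 and -0.88 in p107-null skin, -0.13 and 0.095 in pRb-null skin, against -0.88 and -0.74 in pRb+/+ skin. Both double-null arrays were the highest of the 8, the pRb-null arrays came next, and the p107-null and pRb+/+ arrays lay lowest and overlapped. The difference of double-null minus pRb+/+ skin was 2.32 ± 0.25 (SE, limma linear model, adjusted p = 0.0399). It was 2.18 ± 0.25 (adjusted p = 0.102) against p107-null and 1.52 ± 0.25 (adjusted p = 0.0921) against pRb-null skin, and neither passed. The pRb-null minus pRb+/+ difference was 0.79 ± 0.25 (adjusted p = 0.326) and the p107-null minus pRb+/+ difference 0.14 ± 0.25 (adjusted p = 0.798). The call is lost in 12 of 13 alternative settings, with adjusted p from 0.0431 to 0.252 and the difference between 2.06 and 2.57, always positive. Leaving out any 1 array, controls included, is among the settings that lose it.

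Ccl22, made by dendritic cells and macrophages and read by Ccr4, was chosen after its values were seen. It scored 1.30 and 1.72 in double-null skin, -0.67 and -0.085 in p107-null skin, 0.033 and -0.89 in pRb-null skin, against -0.45 and -0.95 in pRb+/+ skin. Again both double-null arrays were the highest, and the other 3 genotypes overlapped one another. The differences of double-null skin were 2.21 ± 0.45 (adjusted p = 0.0971) from pRb+/+, 1.94 ± 0.45 (adjusted p = 0.147) from pRb-null and 1.89 ± 0.45 (adjusted p = 0.264) from p107-null skin. None passed.

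The eotaxins stood at the other end. Ccl11 scored -1.09 and -1.80 in double-null skin, 0.03 and 0.019 in p107-null skin, 0.67 and 0.16 in pRb-null skin, against 1.18 and 0.83 in pRb+/+ skin. The double-null arrays were the lowest, the pRb+/+ arrays the highest and the single nulls between, without overlap with either. Its difference of double-null minus pRb+/+ skin, -2.45 ± 0.34, had an adjusted p of 0.0542, just outside the threshold, and against pRb-null and p107-null skin the differences were -1.86 ± 0.34 (adjusted p = 0.106) and -1.47 ± 0.34 (adjusted p = 0.253). Ccl24, the other eotaxin, scored -1.30 and -1.69 in double-null skin, 1.05 and 0.34 in p107-null skin, 0.89 and -0.17 in pRb-null skin, against 0.56 and 0.32 in pRb+/+ skin. Its double-null arrays were also both below the other 6, while the 3 other genotypes overlapped. The differences of double-null skin were -2.19 ± 0.48 (adjusted p = 0.237) from p107-null, -1.86 ± 0.48 (adjusted p = 0.168) from pRb-null and -1.93 ± 0.48 (adjusted p = 0.133) from pRb+/+ skin.

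Ccl17, which shares the receptor Ccr4 with Ccl22, scored -0.43 and -0.77 in double-null and 1.10 and -1.29 in pRb+/+ skin, and the double-null values lay between the pRb+/+ ones. Ccl1, the ligand of Ccr8, had its highest score on 1 p107-null array, with 2.25 and -0.21 there. Whether Ccl17 and Ccl22 differ from each other was not tested.

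**Figure D2:**
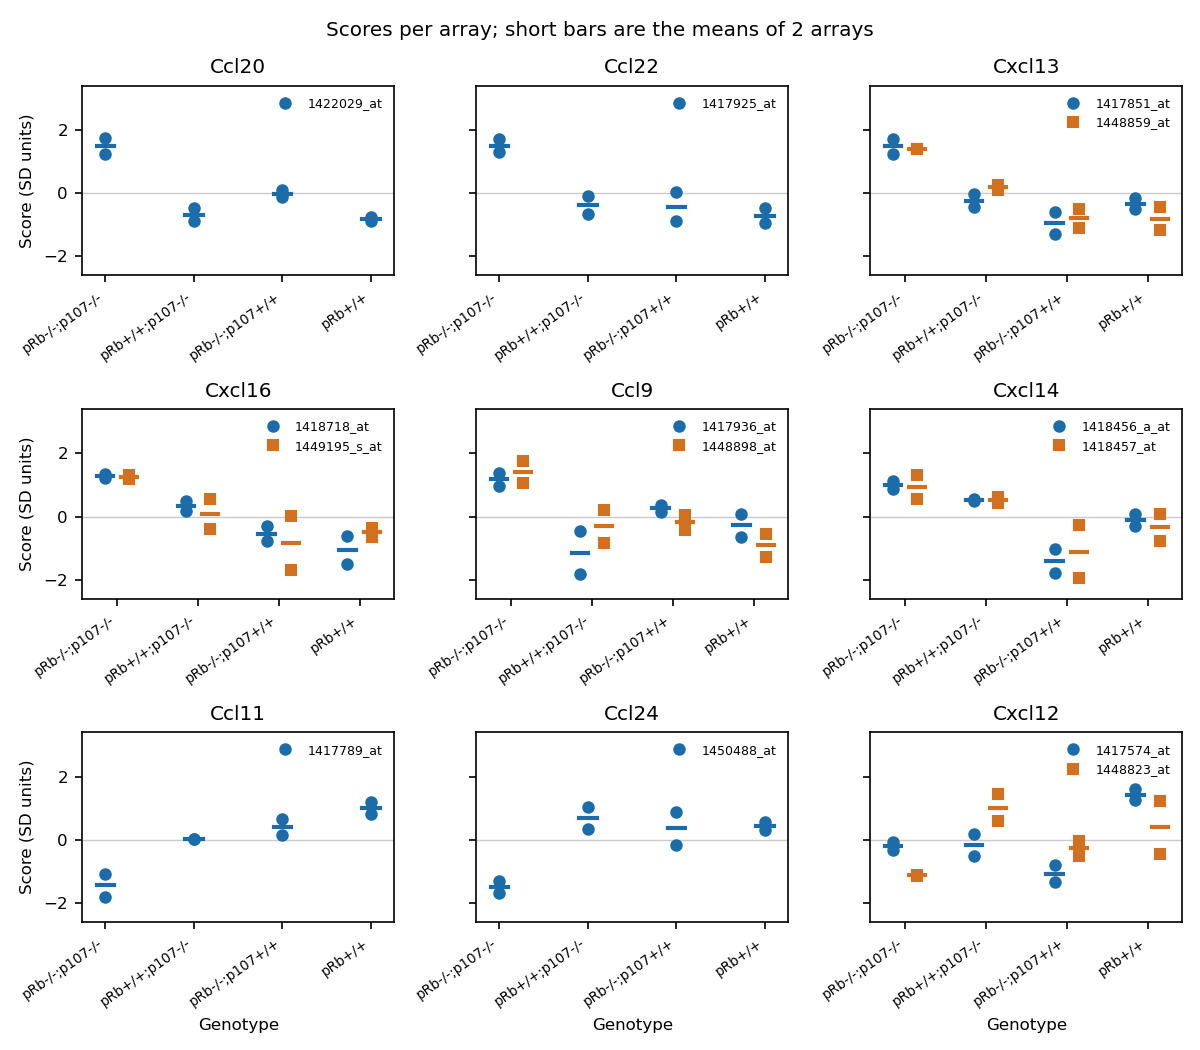
Scores (y axis, SD units) of 9 ligands on each array by genotype (x axis), with circles and squares for the first and second probe set and short bars for the mean of 2 arrays. Ccl20, Ccl22, Cxcl13, Cxcl16 and Ccl9 have both pRb-/-;p107-/- arrays at the top in every probe set, Ccl11 and Ccl24 have them at the bottom, and the 2 probe sets of Cxcl12 order the genotypes differently.

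Of the 14 probe sets of constitutive and other CXC, CX3C and XC ligands, none rose or fell in double-null against pRb+/+ skin at an adjusted p under 0.05. At an unadjusted p under 0.05, 4 were higher and 1 was lower, against 10.8% higher and 11.5% lower over all probe sets. Of the 14 differences 11 were positive, or 78.6% against 52.3% of all probe sets, with a median of 0.50. Several of the 14 are probe sets of the same gene. Cxcl13, the ligand of Cxcr5 that gathers B cells into follicles, had 2 probe sets. The first scored 1.25 and 1.73 in double-null skin, -0.023 and -0.44 in p107-null skin, -1.28 and -0.58 in pRb-null skin, against -0.50 and -0.15 in pRb+/+ skin. The second scored 1.40 and 1.41 in double-null skin, 0.12 and 0.26 in p107-null skin, -0.49 and -1.10 in pRb-null skin, against -0.44 and -1.16 in pRb+/+ skin. In both, the double-null arrays were the top 2 of the 8, and the remaining order differed between them. Double-null minus pRb-null differences were 2.42 ± 0.36 (adjusted p = 0.0784) and 2.20 ± 0.34 (adjusted p = 0.0828) for the first and second probe set. Against pRb+/+ skin they were 1.82 ± 0.36 (adjusted p = 0.0922) and 2.20 ± 0.34 (adjusted p = 0.0638).

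Cxcl16, a membrane-bound ligand of Cxcr6 that can be shed, gave 1.34 and 1.22 in double-null skin, 0.17 and 0.51 in p107-null skin, -0.31 and -0.79 in pRb-null skin, against -0.63 and -1.52 in pRb+/+ skin in its first probe set. In the second it gave 1.19 and 1.32 in double-null skin, 0.56 and -0.41 in p107-null skin, 0.014 and -1.68 in pRb-null skin, against -0.36 and -0.63 in pRb+/+ skin. Both put the double-null arrays on top, and the first also put the p107-null arrays above all 4 arrays of pRb-null and pRb+/+ skin. The first probe set differed between double-null and pRb+/+ skin by 2.36 ± 0.38 (adjusted p = 0.0688) and the second by 1.75 ± 0.70 (adjusted p = 0.259). For p107-null minus pRb+/+ skin the first gave 1.41 ± 0.38 (adjusted p = 0.183).

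Cxcl14 ordered the arrays by p107 status. Its first probe set scored 1.12 and 0.88 in double-null skin, 0.50 and 0.57 in p107-null skin, -1.80 and -1.03 in pRb-null skin, against -0.30 and 0.07 in pRb+/+ skin. All 4 p107-/- arrays lay above the other 4, the double-null arrays highest and the pRb-null arrays lowest. The double-null minus pRb-null difference was 2.42 ± 0.31 (adjusted p = 0.0665), and the pRb-null minus pRb+/+ difference was -1.30 ± 0.31 (adjusted p = 0.254). The second probe set scored 1.31 and 0.55 in double-null, 0.62 and 0.43 in p107-null, -0.28 and -1.94 in pRb-null and -0.76 and 0.08 in pRb+/+ skin. It split the arrays by p107 status too, but the double-null and p107-null arrays overlapped there, and its double-null minus pRb-null difference was 2.04 ± 0.71 (adjusted p = 0.254).

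Cxcl12, the ligand of Cxcr4 made by stromal cells, was lowest in pRb-null skin by 1 probe set and lowest in double-null skin by the other. The first scored -0.059 and -0.33 in double-null skin, 0.20 and -0.52 in p107-null skin, -0.81 and -1.34 in pRb-null skin, against 1.26 and 1.60 in pRb+/+ skin. Its pRb+/+ arrays were above and its pRb-null arrays below all others. The differences from pRb+/+ skin were -1.62 ± 0.35 (adjusted p = 0.106) in double-null, -1.59 ± 0.35 (adjusted p = 0.144) in p107-null and -2.50 ± 0.35 (adjusted p = 0.151) in pRb-null skin. The second probe set scored -1.13 and -1.13 in double-null skin, 1.44 and 0.59 in p107-null skin, -0.027 and -0.52 in pRb-null skin, against -0.46 and 1.24 in pRb+/+ skin. There the double-null arrays were the lowest, and the p107-null minus pRb+/+ difference had the other sign, at 0.62 ± 0.69 (adjusted p = 0.661). The probe sets therefore do not give 1 pattern for the gene.

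Among the rest of this group, Cxcl17 and 1 of 3 Cx3cl1 probe sets had both p107-null arrays above the other 6. Cxcl17 scored 1.37 and 1.07 there, against 0.52 and -1.50 in pRb+/+ skin. That Cx3cl1 probe set scored 1.69 and 0.97, against 0.11 and -0.86 in pRb+/+ skin, and its 2 other probe sets did not separate that genotype. Pf4, a platelet chemokine, had its lowest score on 1 pRb-null array, with -2.35 and 0.79 on the pair. Xcl1, which acts on dendritic cells through Xcr1, scored -1.60 and -0.18 in double-null and -1.12 and -0.0065 in pRb+/+ skin, and these overlapped.

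The 11 probe sets of monocyte and inflammatory CC ligands gave no call in the 5 pairs of genotypes tested. Against pRb+/+ skin, 7 of 11 were positive in double-null skin (63.6%, median 0.71) and 9 of 11 in p107-null skin (81.8%, median 0.73). In pRb-null skin 4 of 11 were positive (36.4%, median -0.42). Over all probe sets the shares were 52.3%, 58.8% and 53.7% in that order, with medians of 0.10, 0.35 and 0.12. At an unadjusted p under 0.05 the members' shares were 9.09%, 18.2% and 9.09%. All were below those of all probe sets, 22.3%, 19.4% and 13.4%. Ccl9, a mouse ligand of Ccr1, was chosen after its values were seen. One of its probe sets scored 1.75 and 1.06 in double-null skin, 0.20 and -0.83 in p107-null skin, 0.056 and -0.41 in pRb-null skin, against -1.27 and -0.55 in pRb+/+ skin. The other scored 0.97 and 1.38 in double-null skin, -1.83 and -0.47 in p107-null skin, 0.37 and 0.14 in pRb-null skin, against 0.074 and -0.64 in pRb+/+ skin. Both double-null arrays were the highest in each, but the probe sets differed in the sign of the p107-null minus pRb+/+ difference, 0.60 ± 0.53 (adjusted p = 0.587) and -0.87 ± 0.57 (adjusted p = 0.47). Their double-null minus pRb+/+ differences were 2.31 ± 0.53 (adjusted p = 0.118) and 1.46 ± 0.57 (adjusted p = 0.249).

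Ccl6, a mouse chemokine of macrophages and neutrophils, had the second largest F among members over the 4 genotypes in 1 of its probe sets. That probe set scored 0.23 and 0.58 in double-null skin, -0.03 and 0.05 in p107-null skin, -1.70 and -1.20 in pRb-null skin, against 0.76 and 1.30 in pRb+/+ skin. The pRb-null arrays were the lowest of the 8 and the pRb+/+ arrays the highest, with the 2 p107-/- genotypes between. The pRb-null minus pRb+/+ difference was -2.48 ± 0.29 (adjusted p = 0.13), and the double-null minus pRb-null difference was 1.85 ± 0.29 (adjusted p = 0.0847). Its interaction of both losses was 2.88 ± 0.41 (adjusted p = 0.142), the largest t of the members for that term. The other probe set had the opposite sign for pRb-null minus pRb+/+ skin, 1.42 ± 1.09 (adjusted p = 0.645), with 2.24 and -0.61 on the pRb-null arrays and -0.23 and -0.99 on the pRb+/+ arrays. The first is of the kind that Affymetrix names for probes that can match more than 1 transcript.

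Ccl5, Ccl7 and Ccl12 were highest on both p107-null arrays. Ccl5, which attracts T cells and monocytes, scored 0.28 and 0.23 in double-null skin, 1.58 and 0.96 in p107-null skin, -1.66 and -0.37 in pRb-null skin, against -0.36 and -0.65 in pRb+/+ skin. The double-null arrays came after the p107-null ones, and all 4 p107-/- arrays lay above the other 4. Ccl7 scored 1.78 and 0.76 and Ccl12 2.13 and 0.46 in p107-null skin, against -0.23 and 0.032 and -0.23 and 0.083 in pRb+/+ skin. For p107-null minus pRb+/+ skin the differences were 1.77 ± 0.52 (adjusted p = 0.199) for Ccl5, 1.37 ± 0.75 (adjusted p = 0.399) for Ccl7 and 1.37 ± 0.73 (adjusted p = 0.392) for Ccl12. Ccl3 and Ccl4, which attract monocytes, were each highest on the first p107-null array only, with 2.11 and -0.17 for Ccl3 and 1.64 and -0.044 for Ccl4. Ccl2, the main monocyte attractant, did not separate the genotypes: its double-null scores were 0.79 and -1.10 and its pRb+/+ scores -0.93 and 0.83. Ccl8 had its highest score on the second double-null array, with 0.15 and 1.99 on the pair.

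The 4 neutrophil-attracting CXC ligands and the 4 interferon-induced probe sets gave no call either. Cxcl1, a keratinocyte-derived ligand of Cxcr2, scored -0.29 and 0.76 in double-null skin, 0.47 and -0.12 in p107-null skin, -1.84 and -0.87 in pRb-null skin, against 0.66 and 1.23 in pRb+/+ skin. Only the pRb-null arrays stood apart, below the other 6. The pRb-null minus pRb+/+ difference was -2.30 ± 0.58 (adjusted p = 0.267) and the double-null minus pRb-null difference 1.59 ± 0.58 (adjusted p = 0.267). Cxcl2 and Cxcl5, which share that receptor, had positive pRb-null minus pRb+/+ differences of 1.44 ± 1.01 (adjusted p = 0.619) and 1.32 ± 1.07 (adjusted p = 0.664). Cxcl15, a chemokine best known from mouse lung, scored 0.068 and -1.77 in double-null and -0.004 and -0.24 in pRb+/+ skin. The interferon-induced ligands Cxcl9, Cxcl10 and Cxcl11 share the receptor Cxcr3. Their double-null minus pRb+/+ differences ran from -1.29 ± 1.00 (adjusted p = 0.518) in 1 Cxcl11 probe set to 1.20 ± 0.99 (adjusted p = 0.539) in Cxcl10. Cxcl9 had its highest score on 1 pRb-null array, with 2.29 and -0.54 on the pair.

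Of the 4 probe sets of homeostatic CC ligands, those of Ccl25 and 1 of Ccl28 had the 4 p107-/- arrays above the other 4, and none passed. Ccl25, the ligand of Ccr9, scored 1.48 and -0.074 in double-null and 1.16 and 0.57 in p107-null skin, against -0.23 and -0.63 in pRb-null and -0.91 and -1.37 in pRb+/+ skin. The pRb+/+ arrays were the lowest. Ccl28, an epithelial ligand of Ccr10, scored 0.086 and 0.47 in double-null and 1.30 and 1.21 in p107-null skin in 1 probe set, against -1.64 and -0.43 and -0.86 and -0.12 in pRb-null and pRb+/+ skin. Its p107-null arrays were the highest, while the second Ccl28 probe set did not part the arrays by p107 status. Ccl27a, the keratinocyte ligand of Ccr10, had no such pattern, with -0.19 and -0.45 in double-null and -0.50 and 1.81 in pRb+/+ skin.

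None of the 23 receptor probe sets passed in the 5 pairs of genotypes tested. In double-null against pRb+/+ skin 13 of 23 were positive (56.5% against 52.3% of all probe sets), with a median of 0.36 against 0.10. Only 1 had an unadjusted p under 0.05 (Ccr7), which is 4.35% against 22.3% of all probe sets, so the receptors' share was below the background. Ccr7, which leads dendritic cells to lymph nodes and was chosen after its values were seen, scored 0.52 and 1.23 in double-null skin, 1.21 and -0.15 in p107-null skin, 0.21 and -0.49 in pRb-null skin, against -0.92 and -1.61 in pRb+/+ skin. The pRb+/+ arrays were the lowest of the 8. Both double-null arrays lay above the pRb-null ones, and the p107-null arrays overlapped both of these genotypes. Its difference was 2.14 ± 0.65 (adjusted p = 0.173) for double-null and 1.80 ± 0.65 (adjusted p = 0.256) for p107-null minus pRb+/+ skin. Ccr1l1, a relative of Ccr1, scored 0.019 and 0.46 in double-null skin, 1.33 and 1.21 in p107-null skin, -1.15 and -1.04 in pRb-null skin, against 0.22 and -1.04 in pRb+/+ skin. The p107-null arrays were the highest and the pRb-null arrays the lowest, the second of them level with 1 pRb+/+ array. The p107-null minus pRb+/+ difference was 1.68 ± 0.48 (adjusted p = 0.195), and the double-null minus pRb-null difference was 1.34 ± 0.48 (adjusted p = 0.258).

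Of the receptors of the ligands above, Ccr6 and Ccr4 overlapped between double-null and pRb+/+ skin, while Cxcr5 and Ccr3 were lower on both double-null arrays. The 2 probe sets of Cxcr6, the receptor of Cxcl16, had opposite signs. One scored 1.02 and 0.75 in double-null skin, against -0.53 and -0.47 in pRb+/+ skin. The other scored -1.51 and 0.86 in double-null skin, against 0.13 and 1.65 in pRb+/+ skin. Ccr6, the receptor of Ccl20, scored -1.79 and 0.90 in double-null skin, the lowest and the second highest value of the 8, against -0.61 and 0.50 in pRb+/+ skin. Ccr4 scored -0.45 and 1.50 in double-null and 0.58 and -1.43 in pRb+/+ skin, and Cxcr5 scored -0.67 and -0.98 and 0.41 and -0.091 in the same groups. Ccr3, the receptor of both eotaxins, scored -2.11 and 0.097 in double-null and 1.13 and 0.44 in pRb+/+ skin, with a difference of -1.79 ± 0.96 (adjusted p = 0.369). Cxcr4 scored 0.93 and 0.68 in p107-null and -2.16 and -0.42 in pRb-null skin, against 0.21 and 0.63 in pRb+/+ skin. Its p107-null arrays were above and its pRb-null arrays below all others. The 8 probe sets of CXC and CX3C receptors had 0 positive differences in pRb-null minus pRb+/+ skin (median -0.34) and 7 in p107-null minus pRb+/+ skin (median 0.83), and none passed. Over all probe sets 53.7% were positive in the first of these comparisons (median 0.12) and 58.8% in the second (median 0.35). They include Cxcr3 of T cells and Cx3cr1 of macrophages, which overlapped between double-null and pRb+/+ skin, and Cxcr2 of neutrophils, which was higher on both double-null arrays, with 0.21 and 1.40 against 0.076 and -1.11 in pRb+/+ skin. Ccr1, Ccr2 and Ccr9, with several probe sets each, gave both signs for pRb-null minus pRb+/+ skin. The difference between a ligand and its receptor was not tested.

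**Figure D3:**
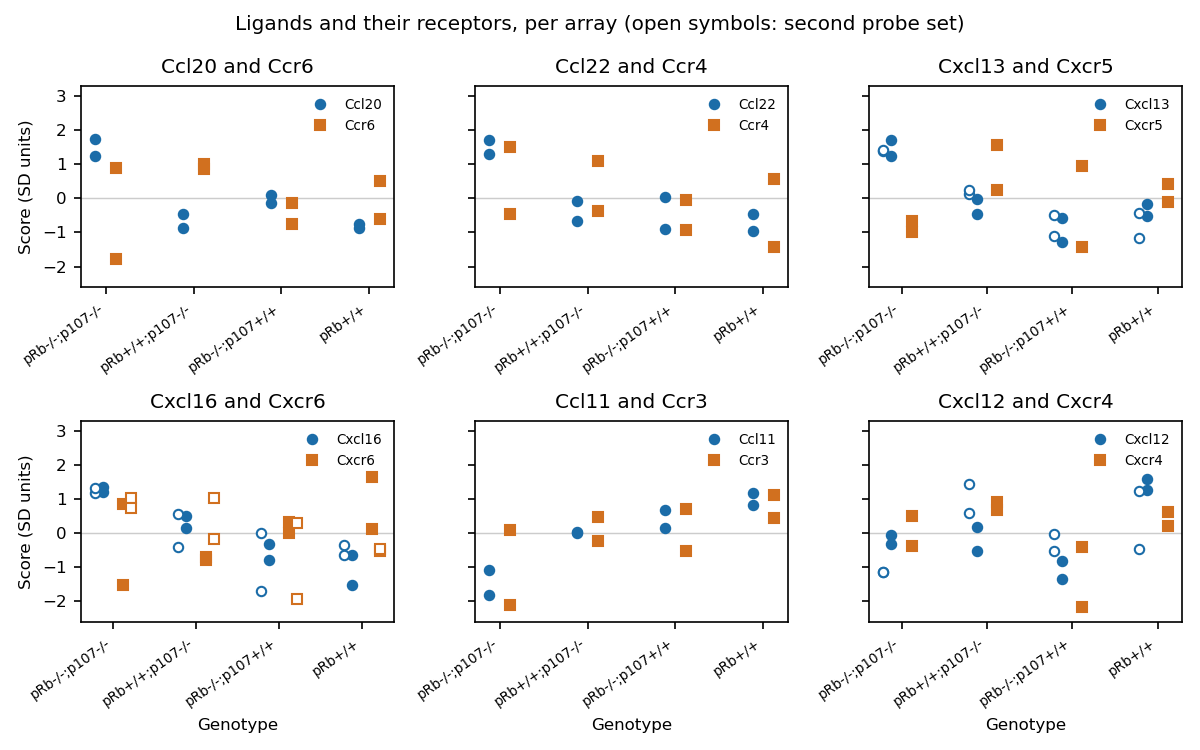
Scores (y axis, SD units) of 6 ligands (circles) and their receptors (squares) on each array by genotype (x axis), open symbols for a second probe set. Both pRb-/-;p107-/- arrays are at the top for Ccl20, Ccl22, Cxcl13 and Cxcl16, while the 2 values of Ccr6 there lie at -1.79 and 0.90 and those of Ccr4 at -0.45 and 1.50.

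Loss of p107 alone gave no call among the members. In p107-null against pRb+/+ skin 0 of 66 passed with the unmoderated limma test (background 0.42%), also with the moderated test, and 11 had an unadjusted p under 0.05 (16.7% against 19.4% of all probe sets). Of these 8 were higher and 3 lower, against 11.7% and 7.69% of all probe sets. The count of 11 fell to 1 without the first p107-null array, to 6 without the second or without either double-null array, to 3 without the second pRb+/+ array and to 3 with array medians subtracted. The differences leaned upwards: 51 of 66 were positive (77.3% against 58.8%), and the median was 0.61 over the members and 0.35 over all probe sets. The median was 0.57 over ligands and 0.79 over receptors. With each array's median subtracted, the members' median was 0.30 and that of all probe sets 0.037, and without the first p107-null array the members' median was 0.27.

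Between double-null and pRb-null skin, which differ in p107, 0 of 66 passed (background 1.37%) and 13 had an unadjusted p under 0.05 (19.7% against 19.2%). Of these 11 were higher and 2 lower, whereas over all probe sets 7.77% were higher and 11.4% lower. Without the second double-null array the count was 8. The higher ones were both probe sets of Cxcl13, Cxcl14 and Cxcl16, 1 each of Ccl9 and Ccl6, and those of Ccl20, Ccl22 and the receptor Ccr1l1. The 2 lower ones were the eotaxins Ccl11 and Ccl24. The median difference was 0.39 over the members and -0.10 over all probe sets. The members' median was 0.76 and 0.67 without the first and the second double-null array and 0.60 without the first pRb-null array. Averaged over both pRb states, the 4 p107-/- arrays minus the other 4 gave 0 calls (background 3.04%) and 15 at an unadjusted p under 0.05 (22.7% against 24.9%), 14 higher and 1 lower, against 12.7% higher and 12.1% lower over all probe sets. Cxcl14 had the lowest adjusted p, with 1.53 ± 0.22 (adjusted p = 0.0572). The poly-A controls split the arrays the same way. So did the 18 hybridization controls, with -0.64 and -0.32 on the double-null and -0.80 and -0.71 on the p107-null arrays, against 0.09 and -0.03 on the pRb-null and 0.37 and 2.05 on the pRb+/+ arrays. The 3 Gapdh controls averaged -1.47 and -1.52 in pRb+/+ skin, lower than in every other genotype, where their averages ran from -0.03 to 0.84. By contrast, the 3 beta-actin controls were lowest in double-null skin, with averages of -1 and -1.08. They were highest in pRb-null skin (1.21 and 1.41), with 0.05 and -0.02 in p107-null and 0.3 and -0.86 in pRb+/+ skin between. The part of these controls in the differences was not tested.

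Loss of pRb was read in both p107 states. In pRb-null against pRb+/+ skin 0 of 66 passed with the unmoderated and with the moderated test (background 0%), and 5 had an unadjusted p under 0.05 (7.58% against 13.4%), 1 higher and 4 lower, against 8.24% and 5.13% of all probe sets. The count of 5 was 11 without the second pRb-null array and 3 without the first pRb-null or the second pRb+/+ array. Ccl20 was higher, and Cxcl12, Cxcl14, Cxcl1 and Ccl6 were lower in 1 probe set each. The median was -0.26 over the members and 0.12 over all probe sets, and 25 of 66 were positive (37.9% against 53.7%). The members' median was 0.047 without the second pRb-null array and -0.005 without the first pRb+/+ array, so its sign rests on single arrays. In double-null against p107-null skin 0 passed (background 0.256%) and 9 had an unadjusted p under 0.05 (13.6% against 12%). The 6 higher were Ccl20, Ccl22 and the 4 probe sets of Cxcl13 and Ccl9, and the 3 lower were Ccl24, Ccl11 and 1 of Cxcl12, against 4.72% higher and 7.27% lower over all probe sets. Without the second double-null array or the first p107-null array the count was 5. The members' median in that comparison was -0.16, against -0.33 over all probe sets, and 30 of 66 were positive (45.5% against 37.4%). The members' median was 0.12 without the first p107-null array and -0.46 without the second. It was -0.35 and -0.034 without the second and the first double-null array. Averaged over both p107 states 0 passed (background 0.181%), and Ccl20 led with 1.49 ± 0.18 (adjusted p = 0.11).

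The interaction of both losses gave 0 calls among the members and among all probe sets (background 0%), with 7 members at an unadjusted p under 0.05 (10.6% against 13.1%). For Ccl20 it was 1.39 ± 0.35 (adjusted p = 0.256), for the first Cxcl13 probe set 2.32 ± 0.50 (adjusted p = 0.222) and for Ccl24 -2.12 ± 0.68 (adjusted p = 0.341). It was thus not shown that losing both genes differs from the sum of the single losses for any member. The F test over the 4 genotypes called 0 members (background 1.28%) and had 14 at an unadjusted p under 0.05 against 21.4% of all probe sets. Ccl20 came first with F = 36.7 and an adjusted p of 0.0792. These comparisons share arrays and are not independent of one another.

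A description by rank, chosen after seeing the data, counted the probe sets whose 2 arrays of a genotype both lay beyond the other 6. Both double-null arrays were above the other 6 for 9 members (13.6% against 6.95% of all probe sets) and below for 3 (4.55% against 11.4%). Both p107-null arrays were above for 9 members (13.6% against 8.81%) and below for 0 (0% against 4.05%). Both pRb-null arrays were above for 0 members (0% against 6.1%) and below for 7 (10.6% against 5.35%). For the pRb+/+ arrays the counts were 4 above (6.06% against 7.28%) and 2 below (3.03% against 10.3%). The 9 of double-null skin belonged to 6 ligand genes and to no receptor, and the 9 of p107-null skin to 9 genes, 3 of them receptors (Ccr1l1, Cxcr4 and Cx3cr1). With each array's median subtracted, the double-null count was 11 of 66 (8.86% of all probe sets), the p107-null count 7 of 66 (5.8%) and the pRb-null count below 5 of 66 (6.13%). Without both pRb-null arrays, the p107-null count above the rest was 10 of 66, against 14.9% of all probe sets, a share close to the background. The double-null count was then 9 of 66 (13.6% against 9.9%).

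**Figure D4:**
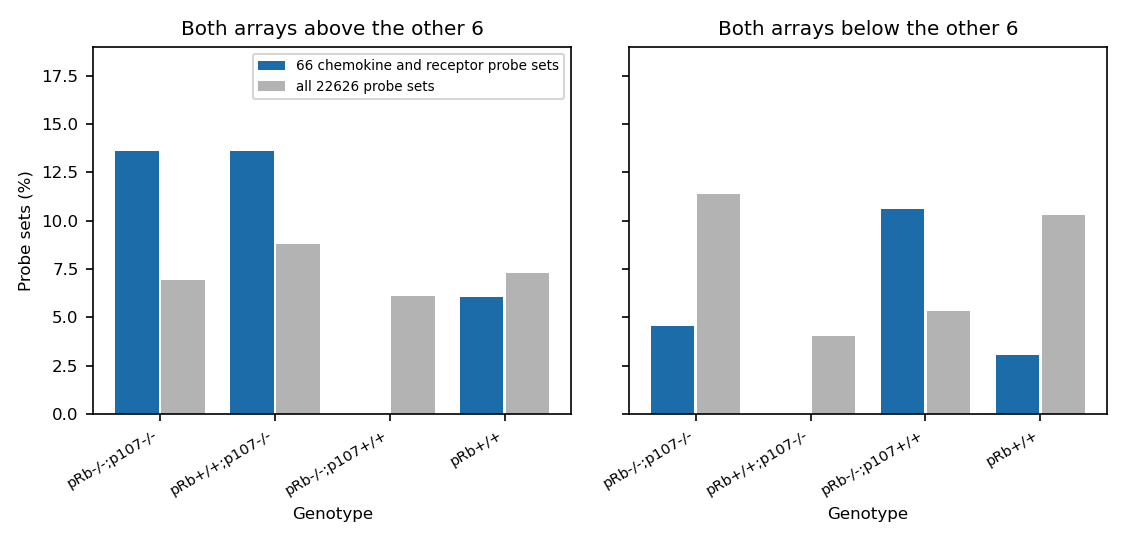
Share of probe sets (y axis, percent) with both arrays of a genotype above (left) or below (right) the other 6 arrays, for the 66 chemokine and receptor probe sets (blue) and all 22626 probe sets (grey). The members' share is 13.6% against 6.95% above for pRb-/-;p107-/- and 10.6% against 5.35% below for pRb-/-;p107+/+.

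Single arrays weighed on these patterns. The first p107-null array held the highest score of 21 of the 66 probe sets, against 15.7% of all probe sets, and the second of 5, against 9.36%. The second double-null array was highest for 13 and the first for 7, against 11.5% and 10.4% of all probe sets. The first and second pRb-null arrays were lowest for 15 and 13 members, against 13.4% and 12.3% of all probe sets. The first and second pRb+/+ arrays were lowest for 3 and 14, against 17.9% and 15.2%. Cxcl10, Ccl1, Ccl3 and Ccl4 are examples whose p107-null value is high on the first array only.

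**Figure D5:**
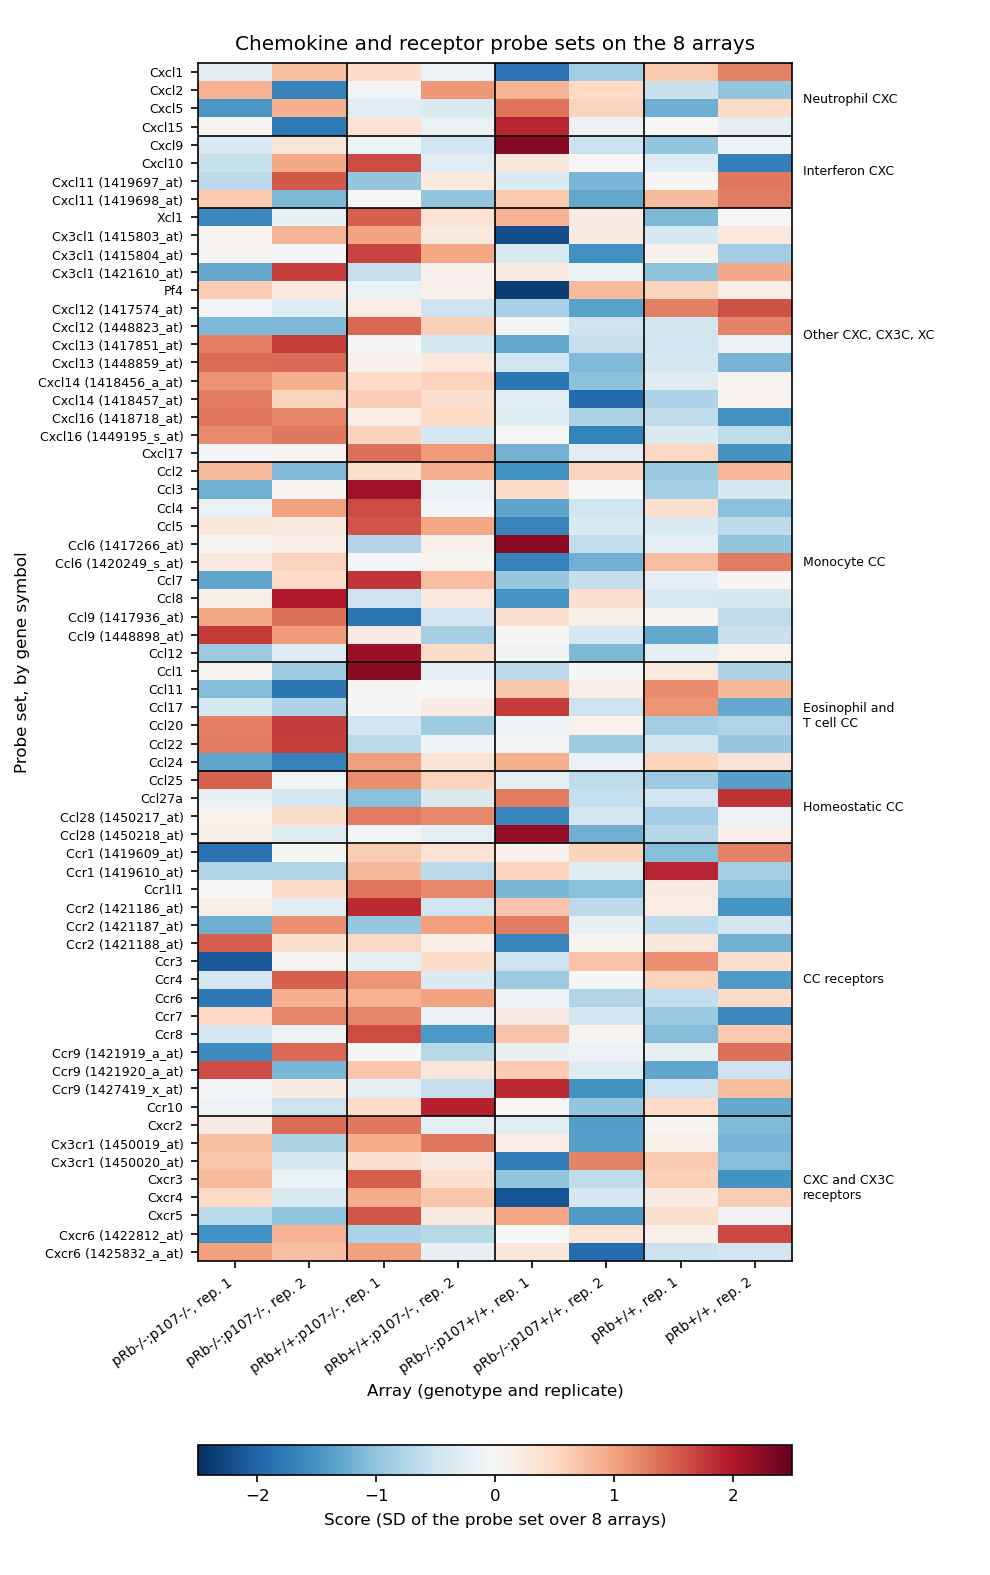
Scores (colour, SD units, red above and blue below the probe set's mean) of the 66 probe sets (rows, by role of the gene) on the 8 arrays (columns, by genotype). The red block of Cxcl13, Cxcl14 and Cxcl16 on the pRb-/-;p107-/- arrays and the first pRb+/+;p107-/- array, highest for 21 probe sets, stand out.

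Probe sets of 1 gene were compared by sign. Of 14 genes with several probe sets, 3 had opposite signs between them in double-null minus pRb+/+ skin, 4 in double-null minus p107-null and 6 in double-null minus pRb-null skin. In p107-null minus pRb+/+ skin the number was 7, and in pRb-null minus pRb+/+ skin 8. In double-null minus pRb+/+ skin 11 of the 14 had the same sign in all their probe sets, and Ccl6, Ccr9 and Cxcr6 are the 3 that did not. Cxcl13, Cxcl14, Cxcl16 and Ccl9, with 2 probe sets each, are among the 11. For Cxcl13, Cxcl16 and Ccl9 both double-null arrays lay above the other 6 in each probe set. That fixed the sign, so it lends them no support.

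Genes upstream and downstream of the chemokines were taken from lists chosen with earlier results of these data known, with 1 probe set a gene. Of 17 cytokine and NF-kappa B feedback genes, 1 rose (Tslp) and 0 fell in double-null against pRb+/+ skin. 13 of the 17 differences were positive with a median of 1.56. Over 12393 genes 53.3% were positive with a median of 0.14, and 160 rose and 198 fell. Tslp, an epithelial cytokine that acts on dendritic cells, differed by 2.22 ± 0.17 (adjusted p = 0.0234) from pRb+/+ and by 1.63 ± 0.17 (adjusted p = 0.0499) from pRb-null skin. The call against pRb-null skin is lost with limma's moderated test and in a fit to the 2 genotypes alone, where 0 of all probe sets were called. The list's summed score was 5.59 and 12.5 on the double-null and 3.99 and 5.82 on the p107-null arrays, against -8.29 and -5.73 on the pRb-null and -5.37 and -8.53 on the pRb+/+ arrays, without overlap between p107 states. Of 13 interferon response genes 10 were positive (median 0.81) and none passed. Of 18 chemokine receptor signalling genes 13 were positive and 1 rose: Arrb2, the beta-arrestin that desensitizes such receptors, by 2.22 ± 0.28 (adjusted p = 0.0478). Of 6 genes on a list of atypical receptors that also names Ccrl2 and Cmklr1, 4 were positive and none passed in double-null against pRb+/+ skin.

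Markers of cells that make or follow chemokines also differed in double-null against pRb+/+ skin. Over all 12393 genes, the background for each marker list here and below, 160 rose, 198 fell and 53.3% of the differences were positive. Of 9 mast cell genes 3 rose (Tpsab1, Cpa3 and Hdc), 1 fell (Mcpt4) and 8 differences were positive. In this comparison the calls of every marker gene named here, and those of Tslp and Arrb2, are lost with the moderated test and without either double-null array, where 0 of all probe sets were called with limma, and without any other single array the calls over all probe sets numbered 1 to 242, against 666. The summed mast cell score was 4.63 and 5.96 in double-null and 4.24 and 4.36 in p107-null skin, against -4.47 and -3.26 in pRb-null and -6.55 and -4.91 in pRb+/+ skin. Of 9 Langerhans and dendritic cell genes 2 rose (Epcam and Cd74) and none fell. Their summed score was 2.20 and 2.22 in double-null and 4.44 and 7.66 in p107-null skin, against -2.77 and -4.92 in pRb-null and -4.86 and -3.97 in pRb+/+ skin. Both lists thus split the arrays by p107 status, as Cxcl14, Ccl5 and Ccl25 did.

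Of 11 macrophage genes 1 rose (Cd14) and 1 fell (Csf1r), with summed scores of 3.51 and 0.14 in double-null, 3.88 and 1.69 in p107-null, -4.48 and -0.02 in pRb-null and -3.03 and -1.69 in pRb+/+ skin. Of 9 neutrophil genes 1 rose (Lcn2), which keratinocytes can also make, with sums of -2.71 and 3 in double-null, 6.56 and 7.66 in p107-null and -2.70 and -3.41 in pRb-null skin, against -3.13 and -5.26 in pRb+/+ skin. The p107-null neutrophil sums were the highest of the 8. None of 8 T cell, 6 platelet, 4 lymphatic endothelial, 7 fibroblast, 5 adipocyte and 7 keratinocyte genes passed, and 1 of 8 endothelial genes fell (Tek). Fibroblast sums were -4.23 and -8.61 in double-null skin, the lowest of the 8 arrays, against -2.20 and -1.37 in pRb+/+ skin. They were higher in the single nulls, with 7.46 and 3.86 in p107-null and 3.37 and 1.74 in pRb-null skin. The eotaxins Ccl11 and Ccl24 were also lowest in double-null skin, but Ccl11 was highest in pRb+/+ skin. Adipocyte sums were lowest in double-null skin too, at -2.20 and -4.64, against -2.10 and -1.24 in pRb+/+ skin. Keratinocyte sums were 4.22 and 2.37 in double-null, 4.34 and 2.26 in p107-null and -8.07 and -3.59 in pRb-null skin, the lowest, against -0.42 and -1.11 in pRb+/+ skin. The keratinocyte and macrophage sums thus also lay higher on all 4 p107-/- arrays than on the other 4. The part of these cell markers in the chemokine differences was not tested.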

How the data were processed

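Whole skin was profiled on Affymetrix arrays, 2 for each of 4 genotypes. Per the submitters' processing notes the authors used RMA, with no version given. The deposited values are scores: each of 22690 probe sets has mean 0 and SD 1 over the 8 arrays. No label or file header records that standardization, and its input scale (log or linear) is unknown. Signal over background is therefore unknown, and the number of arrays limits the precision. Genotypes and replicate numbers were taken from the titles.

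The 64 array controls were left out. Of 22626 probe sets, 20380 had 1 gene symbol in the platform annotation, 691 several and 1555 none. All 66 members matched a gene identifier in the RefSeq gene table, 0 symbols changed, and 4 probe sets with several symbols that include a chemokine name were not used.

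A linear model with 1 coefficient per genotype was fitted to all 8 arrays with limma 3.58.1 in R 4.3.3, leaving 4 residual degrees of freedom. The unmoderated test was used because standardizing a probe set leaves its statistic as it was. Adjustment was by Benjamini-Hochberg over 22626 probe sets, with a threshold of 0.05. Simulated normal noise with large planted shifts was used only to check the computation, and it does not show how the test behaves on these 8 arrays. The members, gene lists and tests were chosen with earlier results of these data known. Values were given for genes with a called probe set, the 4 largest t in each pairwise comparison and the 6 largest F, and for others said to be chosen after their values were seen or given to describe a role. Alternatives were limma's moderated test, quantile normalization of the scores, subtraction of array medians, the replicate number as a block, 1 probe set a gene, a fit to the 2 genotypes compared and leaving out each array.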

Additional observations from a re-analysis of the deposited data

How the results depend on the processing

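The 20 pairs of a named probe set and a comparison kept their sign in all 260 refits. The pairs were picked for large t in these same data, so this count lends them no support. The difference cannot change with the moderated test, the replicate block or the fit to 2 genotypes. Nor can it change without an array of a genotype outside the comparison. Ccl20 in double-null (pRb-/-;p107-/-) against pRb+/+ skin was the only member called. It kept its call with array medians subtracted, while the number of members called in that comparison was 0 with the moderated test, with quantile normalization, with the replicate block, in a fit to the 2 genotypes alone and without any 1 array (0 to 0). The other comparisons called 0 members in every setting. Over all probe sets that comparison called 666, against 370 with quantile normalization, 606 with array medians subtracted, 37 with the replicate block and 0 with the moderated test. In the same order of settings double-null against pRb-null skin called 310, against 171, 137, 2 and 0, and p107-null against pRb+/+ skin called 95, against 76, 52, 1 and 0. Double-null against p107-null skin called 58, against 77, 2, 0 and 0. A fit that leaves out an array assumes that the lone array of its genotype varies like the others. Same-numbered arrays did not deviate together (correlations of deviations from -0.131 to 0.105), so the block shares only a number.

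The members' median difference moved with the setting. For double-null minus pRb+/+ skin it was 0.083 with 1 probe set a gene, against 0.36. For double-null minus p107-null skin it was -0.50 with 1 probe set a gene, where all genes gave -0.34. The members' median there was 0.12 with array medians subtracted, against -0.16, and -0.46 to 0.12 without 1 array. For p107-null minus pRb+/+ skin it was 0.38 with quantile normalization and 0.30 with array medians subtracted, against 0.61, and 0.27 to 0.77 without 1 array. Without 1 array it was 0.39 to 0.76 for double-null minus pRb-null skin and -0.32 to 0.047 for pRb-null minus pRb+/+ skin. The cause was not tested. Quantile normalization and median subtraction shifted the median of all probe sets for p107-null minus pRb+/+ skin to 0.073 and 0.037, against 0.35, and for double-null minus p107-null skin to -0.073 and -0.048, against -0.33.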
